A study of Rattus norvegicus with 9 samples.

Results

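Cardiac myosin is described here through 7 genes chosen by name: the heavy chains Myh6, Myh7 and Myh7b, and the light chains Myl2, Myl3, Myl4 and Myl7. All 7 were found among the 18629 genes of the deposited table, and all 7 passed the filter on low counts that left 13708 genes to test. The cells were cardiomyocytes freshly isolated from hearts of Sprague-Dawley rats 1 to 2 days old, and the labels do not say whether atria and ventricles were separated. The 3 Yap1 WT libraries came from cells given an adenovirus (Ad-Yap WT) that carries Yap1, which encodes YAP, a coactivator of transcription held in check by Hippo signalling. The 3 Yap1 shRNA libraries came from cells given an adenovirus (Ad-Yap shRNA) with a short hairpin RNA against Yap1, and the 3 GFP libraries came from cells given an adenovirus for green fluorescent protein (Ad-GFP), the control. Every group was plated for 18 to 20 h in 10% serum, held for 14 h in 1% serum with 1 g/L glucose, and then cultured with 33 mM glucose and insulin at 100 nM for 48 h, so the GFP cells had the same glucose and insulin as the Yap1 cells. No adenovirus with a control hairpin was analysed here, and the labels give neither the promoter of the transgene nor the dose of virus. They also do not say whether the 3 replicates are separate isolations, so p-values measure the spread between these libraries, which may be technical.

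A cardiac myosin molecule joins a pair of heavy chains, which hold the motor that pulls on actin, with regulatory and essential light chains that stiffen its lever arm. In rodents Myh6 encodes the fast alpha heavy chain that dominates the adult heart, and Myh7 encodes the slow beta heavy chain of the fetal ventricle, which returns in the stressed adult heart. Myl2 and Myl7 are the ventricular and atrial regulatory light chains, and Myl3 and Myl4 are the ventricular and atrial essential light chains, of which Myl4 is also made by the fetal ventricle. Myh7b is an old relative of the heavy chains, known in the heart chiefly as the host of a microRNA.

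The Yap1 WT libraries held 10960051 to 11497104 reads assigned to genes, the Yap1 shRNA libraries 6103221 to 6357403 and the GFP libraries 14868180 to 15368473. Yap1 itself was measured at 559, 812 and 622 CPM (reads of a gene scaled by the size of its library) in Yap1 WT libraries, at 95.4, 96.0 and 95.3 CPM in Yap1 shRNA libraries and at 197, 198 and 190 CPM in GFP libraries, so each vector moved its target in the labelled direction. In Yap1 WT libraries, reads of the Yap1 carried by the vector and of the cells' own gene were not told apart. Levels of the myosin genes are given below as TPM, the share of a library's transcripts corrected for gene length and scaled to a fixed sum. Log2 differences, their standard errors (SE) and adjusted p-values come from edgeR's quasi-likelihood test on the counts of all 9 libraries, with Benjamini-Hochberg adjustment over the 13708 genes.

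All 7 myosin genes fell in Yap1 WT cells relative to GFP cells, and all 7 fell in Yap1 shRNA cells relative to GFP cells. The background was high: in Yap1 WT against GFP, 31.8% of all genes tested fell and 32% rose, and in Yap1 shRNA against GFP 39.1% fell and 39.2% rose. With Yap1 WT set against Yap1 shRNA, 6 of the 7 were higher in Yap1 WT and Myh7b did not pass the test, against a background of 31.2% of genes higher and 31.3% lower. The same shares are the background for the counts of each gene list below. The median log2 difference over the 7 genes was -2.41 in Yap1 WT against GFP, -4.53 in Yap1 shRNA against GFP and 2.55 in Yap1 WT against Yap1 shRNA. Over all genes tested, it was 0.0029, -0.012 and 0.037 in the same comparisons. The first and second comparison share the GFP libraries, so the falls in them are not independent of each other. These are bulk libraries, in which fewer cardiomyocytes and less myosin RNA per cardiomyocyte cannot be told apart.

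**Figure D1:**
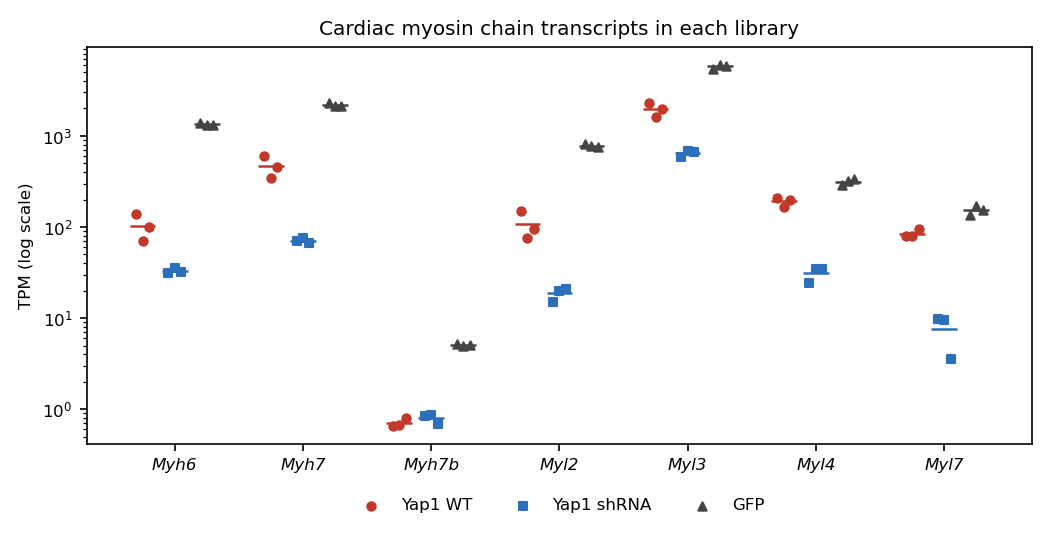
TPM of the 7 myosin genes in each of the 9 libraries, on a log axis, with Yap1 WT, Yap1 shRNA and GFP from left to right, points for libraries and bars for group means. The GFP libraries lie above all Yap1 libraries for each gene, and the Yap1 shRNA libraries lie lowest for every gene except Myh7b.

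Among the heavy chains, Myh6 (NCBI gene 29556) lies on chromosome 15 at 33605653 to 33629730 of the rat build rn6, on the minus strand. It was measured at 140.2, 69.7 and 101 TPM in Yap1 WT libraries, at 31.6, 35.6 and 32.1 TPM in Yap1 shRNA libraries and at 1400.4, 1322 and 1315 TPM in GFP libraries. The 3 groups did not overlap, and the adult alpha chain was lowest in the Yap1 shRNA libraries. Its level fell by 3.86 on the log2 scale (SE 0.19, 14.6-fold) in Yap1 WT cells against GFP cells, with an adjusted p of 3.26e-09 in edgeR. In Yap1 shRNA cells it fell by 5.56 (SE 0.21, 47.1-fold, edgeR adjusted p = 9.02e-11), and it was 1.69 higher (SE 0.19, 3.23-fold, edgeR adjusted p = 4.5e-06) in Yap1 WT cells than in Yap1 shRNA cells.

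Myh7 (NCBI gene 29557) is listed on the same chromosome at 33605654 to 33657761, an interval that takes in nearly all of Myh6. Myh7 is listed there on the plus strand, whereas RefSeq (build GRCr8) has it on the minus strand. These 2 genes are close paralogs with long stretches of like sequence, and how the reads they share were divided rests on the authors' counting. Myh7 had 599, 342 and 452 TPM in Yap1 WT libraries, 70.2, 76.0 and 66.8 TPM in Yap1 shRNA libraries and 2327, 2153 and 2146 TPM in GFP libraries. The fetal beta chain therefore stood above the alpha chain in all 9 libraries, and its groups did not overlap. The log2 difference was -2.41 (SE 0.15, 5.32-fold) in Yap1 WT against GFP and -5.17 (SE 0.17, 36.1-fold) in Yap1 shRNA against GFP, with edgeR adjusted p-values of 2.66e-08 and 3.83e-11. Between the Yap1 groups, Myh7 was 6.78-fold higher in Yap1 WT cells (log2 2.76, SE 0.16, edgeR adjusted p = 1.55e-08).

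Myh7b (NCBI gene 311570, chromosome 3, 151105038 to 151150621 of rn6, plus strand) was the lowest of the 7 in every group. It was measured at 0.66, 0.67 and 0.81 TPM in Yap1 WT libraries, at 0.85, 0.87 and 0.69 TPM in Yap1 shRNA libraries and at 5.20, 4.93 and 5.12 TPM in GFP libraries. Both Yap1 groups lay far below GFP and overlapped with each other. Behind these levels stood 35 to 43 reads a library in Yap1 WT and 18 to 22 reads a library in Yap1 shRNA. The fall was 2.96 on the log2 scale (SE 0.12, edgeR adjusted p = 4.69e-10) in Yap1 WT against GFP and 2.88 (SE 0.13, edgeR adjusted p = 4.32e-10) in Yap1 shRNA against GFP. Yap1 WT and Yap1 shRNA differed by -0.08 (SE 0.17, edgeR adjusted p = 0.767), less than the spread between replicates. On log2(TPM + 1), where a low level pulls a difference towards 0, the 2 falls of Myh7b came to -1.83 and -1.76.

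The 3 heavy chain genes each hold microRNAs in their introns, known together as the myosin-encoded microRNAs. Their mature sequences from RefSeq (build GRCr8) are printed to show the shared seed, bases 2 to 8, in capitals. MicroRNAs were not measured in these messenger RNA libraries, so the levels above are those of the host genes.
rno-miR-208a-3p, within Myh6: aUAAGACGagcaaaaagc
rno-miR-208b-3p, within Myh7: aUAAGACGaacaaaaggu
rno-miR-499-5p, within Myh7b: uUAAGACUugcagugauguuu
The seeds of rno-miR-208a-3p and rno-miR-208b-3p are the same, and that of rno-miR-499-5p has the same letters except the last. All 3 host genes fell in both Yap1 groups relative to GFP.

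Of the regulatory light chains, Myl2 (NCBI gene 363925, chromosome 12, 39951863 to 39959356, minus strand) is the ventricular form and a standard marker of ventricular muscle. It had 150.2, 75.6 and 95.7 TPM in Yap1 WT libraries, 15.0, 19.9 and 21.0 TPM in Yap1 shRNA libraries and 815, 785 and 751 TPM in GFP libraries. The groups were apart, with the Yap1 shRNA libraries lowest at 24 to 35 reads each. Myl2 was 8.24-fold lower in Yap1 WT cells than in GFP cells (log2 -3.04, SE 0.16, edgeR adjusted p = 5.83e-09). It was 48.4-fold lower in Yap1 shRNA cells than in GFP cells (log2 -5.60, SE 0.23, edgeR adjusted p = 1.7e-10), beside 47.1-fold in Myh6, and these were the 2 largest folds among the 7 genes there. In Yap1 WT cells it was 5.87-fold higher than in Yap1 shRNA cells (log2 2.55, SE 0.28, edgeR adjusted p = 4.28e-06).

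Myl7 (NCBI gene 289759, chromosome 14, 86142793 to 86147075, minus strand) is the regulatory light chain of the atrium and of the early heart tube. Its levels were 78.9, 80.2 and 95.5 TPM in Yap1 WT libraries, 9.67, 9.63 and 3.56 TPM in Yap1 shRNA libraries and 134, 170.2 and 152 TPM in GFP libraries. The Yap1 shRNA values rest on 13, 13 and 5 reads, the fewest behind any level of the 7 genes. Myl7 was 2.03-fold lower in Yap1 WT than in GFP cells (log2 -1.02, SE 0.13, edgeR adjusted p = 1.28e-05) and 23.2-fold lower in Yap1 shRNA than in GFP cells (log2 -4.53, SE 0.22, edgeR adjusted p = 6.24e-10). It showed the largest difference between the Yap1 groups, 11.4-fold higher in Yap1 WT cells than in Yap1 shRNA cells (log2 3.51, SE 0.24, edgeR adjusted p = 6.9e-08).

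Of the essential light chains, Myl3 (NCBI gene 24585, chromosome 8, 119030852 to 119036996, plus strand), the ventricular form that slow skeletal muscle also uses, was the most abundant of the 7 in every library. It had 2271, 1597 and 1999 TPM in Yap1 WT libraries, 585, 687 and 658 TPM in Yap1 shRNA libraries and 5467, 5998 and 5878 TPM in GFP libraries. Its groups did not overlap, and it kept its first place in each. It fell by 1.73 on the log2 scale (SE 0.11, 3.32-fold, edgeR adjusted p = 4.19e-08) in Yap1 WT against GFP. In Yap1 shRNA against GFP the fall was 3.38 (SE 0.12, 10.4-fold, edgeR adjusted p = 6.84e-11), and Yap1 WT stood 1.64 above Yap1 shRNA (SE 0.12, 3.13-fold, edgeR adjusted p = 1e-07).

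Myl4 (NCBI gene 688228, chromosome 10, 92628356 to 92638100, plus strand), the atrial and fetal form, was measured at 210.1, 166 and 198 TPM in Yap1 WT libraries. It had 24.2, 34.8 and 34.4 TPM in Yap1 shRNA libraries and 291, 319.7 and 335 TPM in GFP libraries. Of the 7 genes it was the least reduced in Yap1 WT cells, at 1.85-fold below GFP cells (log2 -0.89, SE 0.10, edgeR adjusted p = 5.36e-06). In Yap1 shRNA cells it was 11.7-fold below GFP cells (log2 -3.55, SE 0.14, edgeR adjusted p = 1.07e-10). Yap1 WT exceeded Yap1 shRNA by 6.31-fold (log2 2.66, SE 0.14, edgeR adjusted p = 1.11e-08).

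The promoters of this essential pair are printed because YAP acts through TEAD factors, whose binding core is CATTCC, and because T-box factors, which pattern the chambers, bind the core GGTGTG. Each window runs from 250 bases before to 50 bases after the start of the gene in RefSeq (build GRCr8), and capitals mark matches to either core on either strand. The window of Myl3 is chr8:119616844-119617143 on the plus strand, and that of Myl4 is chr10:89975900-89976199 on the plus strand.
Myl3: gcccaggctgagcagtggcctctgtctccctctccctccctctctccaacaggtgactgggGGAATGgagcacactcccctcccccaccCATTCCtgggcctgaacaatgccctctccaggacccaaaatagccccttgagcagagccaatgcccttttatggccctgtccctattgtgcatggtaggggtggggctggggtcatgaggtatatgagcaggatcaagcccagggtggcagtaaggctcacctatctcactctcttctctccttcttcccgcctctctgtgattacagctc
Myl4: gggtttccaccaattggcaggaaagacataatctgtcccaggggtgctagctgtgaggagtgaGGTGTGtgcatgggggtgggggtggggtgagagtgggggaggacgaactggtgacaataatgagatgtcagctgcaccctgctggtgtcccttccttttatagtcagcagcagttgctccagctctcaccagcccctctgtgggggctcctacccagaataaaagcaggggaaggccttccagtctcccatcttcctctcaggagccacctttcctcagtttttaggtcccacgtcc
The Myl3 window held the TEAD core once on each strand, and the Myl4 window held the T-box core once. The TEAD core stood in 14.2% of all 33469 RefSeq promoter windows and the T-box core in 17.9%, so a match is a description of these letters and not a site.

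**Figure D2:**
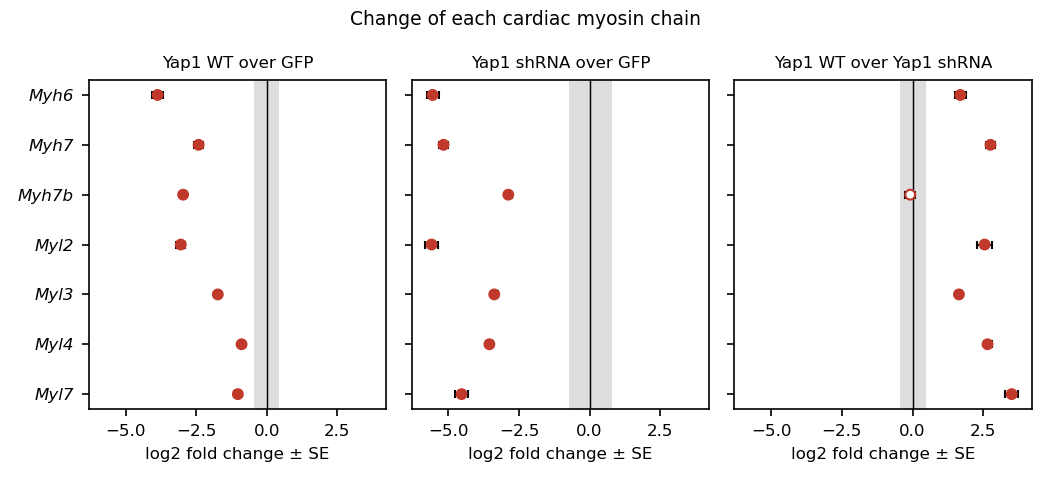
Log2 differences of the 7 myosin genes with their standard errors for Yap1 WT against GFP, Yap1 shRNA against GFP and Yap1 WT against Yap1 shRNA, with the middle 50% of all genes tested in grey and an open point where the test was not passed. In Yap1 WT against GFP the falls run from 0.89 in Myl4 to 3.86 in Myh6, and Myh7b lies at -0.08 in Yap1 WT against Yap1 shRNA.

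Pairs of isoforms were then compared within each library, as the log2 ratio of their TPM, by an exact permutation test over the 3 groups. With 1680 arrangements of 9 libraries the smallest p this test can give is 0.0036. Between a pair of groups of 3 the smallest exact p is 0.1, so no pair of groups could pass 0.05. The 3 ratios tested were adult over fetal heavy chain, atrial over ventricular regulatory light chain and atrial over ventricular essential light chain.

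By the deposited TPM, the balance of the heavy chains lay further to the fetal Myh7 in Yap1 WT than in the other groups. This ratio rests on how the authors' counting divided the reads that Myh6 and Myh7 share, and that division was not tested. Myh6 made up 19.0%, 16.9% and 18.2% of the sum of Myh6 and Myh7 in Yap1 WT libraries. Its share was 31.0%, 31.9% and 32.4% in Yap1 shRNA libraries and 37.6%, 38.0% and 38.0% in GFP libraries. The groups were apart, and both Yap1 groups held a smaller alpha share than GFP, the Yap1 WT libraries the smallest. The log2 ratio averaged -2.19 ± 0.10 in Yap1 WT, -1.10 ± 0.05 in Yap1 shRNA and -0.71 ± 0.02 in GFP libraries (SD, n = 3 each, exact permutation p = 0.0036, adjusted over the 3 ratios p = 0.0054). The ratio was 2.77-fold lower in Yap1 WT than in GFP (log2 -1.47, SE 0.06), 1.31-fold lower in Yap1 shRNA than in GFP (log2 -0.39, SE 0.03) and 2.12-fold lower in Yap1 WT than in Yap1 shRNA (log2 -1.08, SE 0.06), with an exact permutation p of 0.1 for each.

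Among the regulatory light chains the balance lay further to the atrial form in Yap1 WT than in GFP. Myl7 was 34.5%, 51.5% and 49.9% of the sum of Myl7 and Myl2 in Yap1 WT libraries, 39.2%, 32.6% and 14.5% in Yap1 shRNA libraries and 14.1%, 17.8% and 16.9% in GFP libraries. Yap1 WT did not overlap with GFP, whereas the Yap1 shRNA libraries spread from a share below 2 of the 3 GFP libraries to one above the lowest Yap1 WT library. The log2 ratio averaged -0.28 ± 0.56 in Yap1 WT, -1.42 ± 1.01 in Yap1 shRNA and -2.37 ± 0.21 in GFP libraries (SD, n = 3 each, exact permutation p = 0.032, adjusted p = 0.032). It was 4.25-fold higher in Yap1 WT than in GFP (log2 2.09, SE 0.35, exact permutation p = 0.1). The difference between Yap1 shRNA and GFP was 0.96 (SE 0.60, exact permutation p = 0.3) and that between Yap1 WT and Yap1 shRNA was 1.13 (SE 0.67, exact permutation p = 0.2), both within the spread of the libraries. Yap1 shRNA replicate 3, with 5 reads of Myl7, sets the low end, and without it the difference between Yap1 shRNA and GFP was 1.53 and that between Yap1 WT and Yap1 shRNA was 0.56. The 3-group exact permutation p passed 0.05 in the full data, but it was 0.0571 to 0.0857 without any 1 GFP library, 0.05 to 0.118 without any 1 Yap1 WT library and 0.0643 without Yap1 shRNA replicate 2.

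The essential light chains also held more of the atrial form in Yap1 WT. Myl4 was 8.47%, 9.42% and 9.02% of the sum of Myl4 and Myl3 in Yap1 WT libraries, 3.97%, 4.82% and 4.97% in Yap1 shRNA libraries and 5.06%, 5.06% and 5.39% in GFP libraries. The Yap1 WT libraries were above all others, and the Yap1 shRNA libraries lay just under the GFP libraries. The log2 ratio averaged -3.34 ± 0.08 in Yap1 WT, -4.39 ± 0.19 in Yap1 shRNA and -4.20 ± 0.06 in GFP libraries (SD, n = 3 each, exact permutation p = 0.0036, adjusted p = 0.0054). It was 1.81-fold higher in Yap1 WT than in GFP (log2 0.85, SE 0.06) and 2.06-fold higher in Yap1 WT than in Yap1 shRNA (log2 1.04, SE 0.12), each with an exact permutation p of 0.1. Yap1 shRNA differed from GFP by -0.19 (SE 0.11, exact permutation p = 0.1), with no overlap.

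**Figure D3:**
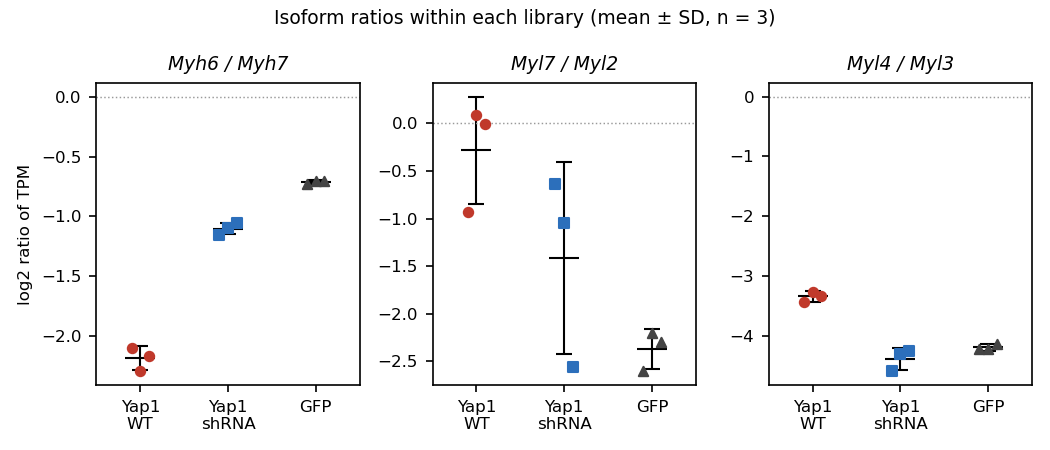
Log2 TPM ratios of Myh6 over Myh7, Myl7 over Myl2 and Myl4 over Myl3 in each of the 9 libraries, with Yap1 WT, Yap1 shRNA and GFP from left to right, points for libraries and bars for the mean and SD of each group. Yap1 WT is lowest for Myh6 over Myh7 and highest on average for both light chain ratios, and the Yap1 shRNA libraries of Myl7 over Myl2 spread from -2.56 to -0.64.

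Summed over the heavy chains, the members held 568 ± 165 TPM in Yap1 WT, 105 ± 6.76 TPM in Yap1 shRNA and 3560 ± 150 TPM in GFP libraries (SD, n = 3 each). The 4 light chains summed to 2339 ± 398 TPM in Yap1 WT, 701 ± 60.5 TPM in Yap1 shRNA and 7032 ± 292 TPM in GFP libraries. Light chain transcripts thus outnumbered heavy chain transcripts 3.66 to 4.66 times in Yap1 WT, 6.17 to 7.20 times in Yap1 shRNA and 1.80 to 2.09 times in GFP libraries, with no overlap between groups. This excess rests on Myl3, which averaged 1956 TPM in Yap1 WT, 643 TPM in Yap1 shRNA and 5781 TPM in GFP libraries. Together the 7 genes took 0.291% of all TPM in Yap1 WT, 0.0806% in Yap1 shRNA and 1.06% in GFP libraries.

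The order of the 7 genes by mean TPM began with Myl3 and Myh7 and ended with Myl7 and Myh7b in every group, and the groups differed in the middle. In Yap1 WT the order was Myl3, Myh7, Myl4, Myl2, Myh6, Myl7 and Myh7b, where Myl2 and Myh6, and Myh6 and Myl7, overlapped between libraries. In Yap1 shRNA it was Myl3, Myh7, Myh6, Myl4, Myl2, Myl7 and Myh7b, where Myh6 and Myl4 overlapped. In GFP it was Myl3, Myh7, Myh6, Myl2, Myl4, Myl7 and Myh7b, and no neighbours overlapped. The atrial and fetal chain Myl4 thus stood below Myh6 and Myl2 in GFP cells but above both in Yap1 WT cells. In Yap1 shRNA cells Myl4 also stood above Myl2, without overlap, but not above Myh6 on average. Within Yap1 WT, replicate 2 had the highest Yap1 and the lowest Myh6, Myh7, Myl2, Myl3 and Myl4, while Myl7 and Myh7b were lowest in replicate 1.

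The members also differed in how alike their profiles were across the 9 libraries, measured as the root mean square difference of centred log2 CPM. Myh7 and Myl2 were closest (0.46) and Myh6 and Myl4 farthest apart (2.11). Among 10433 other genes with enough reads, the nearest to Myl3 was Mybpc3 (0.074), which encodes cardiac myosin binding protein C. Nearest to Myh7 was Actc1 (0.20), the cardiac actin, followed by Itgb1bp2 (0.20) and Srl (0.25), and Srl (0.34) was also nearest to Myl2. Myl4 was nearest to Casq1 (0.14), Myh7b to Tmem204 (0.24) and Myl7 to Cdh3 (0.37). Myh6 lay nearest to Fam180a (0.39), and then to Adamtsl2 (0.53) and the muscle creatine kinase gene Ckm (0.59).

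The other myosin chains of muscle and of the cytoskeleton were counted as a list of 19 genes, of which 16 were in the table and 12 were tested. Of the 12, 10 fell and 0 rose in Yap1 WT against GFP, with a median log2 difference of -1.23 (-0.67 on log2(TPM + 1), which pulls low genes towards 0). Myl12b, which did not pass that test (0.05), was called higher with library size alone or on TPM. Myh11, the smooth muscle heavy chain, averaged 14.1 ± 1.84 TPM in Yap1 WT and 34.2 ± 2.16 TPM in GFP libraries (SD, n = 3 each) and fell by 1.44 (SE 0.08, edgeR adjusted p = 9.07e-09). The log2 difference was -1.37 in Myh10, the nonmuscle heavy chain IIB, -1.44 in Myl9, a smooth muscle regulatory chain, and -0.77 in Myl6, the essential chain of nonmuscle and smooth muscle myosin, and all 3 fell. Falls were therefore not limited to the sarcomeric chains, and those of Myh6, Myh7, Myh7b, Myl2 and Myl3 were larger than each of these 4 by the estimates of the fit. They were not larger than those of all other chains. The skeletal chains Myh1 (log2 -2.92), Myh2 (-2.93), Myh3 (-1.87) and Myl1 (-0.57) fell too, Myh1 and Myh2 by more than Myh7 and Myl3. Myh1 and Myh2 were low, at means of 0.87 and 0.29 TPM in GFP libraries.

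In Yap1 shRNA against GFP 10 of these 12 chains again fell, 0 rose (Myl12b was called higher on TPM), and the median was -1.85 (-0.88 on log2(TPM + 1)). Myh3, the embryonic skeletal heavy chain, averaged 0.0533 ± 0.0231 TPM in Yap1 shRNA libraries, with 1 or 2 reads each, and 2.52 ± 0.455 TPM in GFP libraries. Falls were also called in Myl6 (log2 -1.15), Myl9 (-1.93) and Myh10 (-1.91). Myh2, a fast skeletal heavy chain, had 0 reads in the Yap1 shRNA libraries and 60 in all GFP libraries, which makes it at least 8.38-fold lower in Yap1 shRNA over a floor of 3 reads per group. Set against Yap1 shRNA, 7 of the 12 were higher in Yap1 WT and 1 was lower, with a median of 0.51 (0.43 with Myh2 at that floor, and 0.21 with 6 higher on log2(TPM + 1)). Myh3 was 3.84 higher (SE 0.43) and Myl1, the fast skeletal essential chain, was 2.54 higher (SE 0.31), while Myh11 was the chain that was lower, by -0.63 (SE 0.08, edgeR adjusted p = 3.18e-05). Myh9, the nonmuscle heavy chain IIA, and Myl12b passed the test in none of the 3 comparisons.

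**Figure D4:**
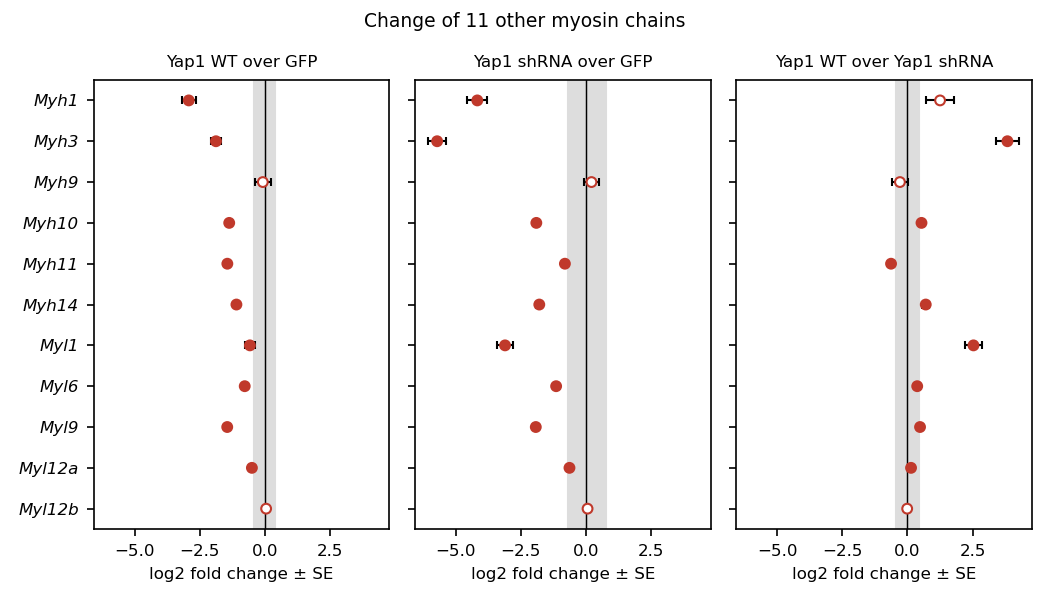
Log2 differences with standard errors of 11 other myosin chain genes in the 3 comparisons, with the middle 50% of all genes tested in grey and open points where the test was not passed. The skeletal chains Myh1 and Myh3 and the essential chain Myl1 lie lowest in Yap1 shRNA against GFP, and Myh9 and Myl12b lie near 0 in each comparison.

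Partners of myosin were a list of 19 genes, 16 of them tested, for proteins that bind, phosphorylate, fold or degrade myosin. Relative to GFP, 12 fell and 1 rose in Yap1 WT (median -0.93), and 10 fell and 3 rose in Yap1 shRNA (median -1.71). On log2(TPM + 1) 11 fell and 2 rose in Yap1 WT (median -0.72), and 8 fell and 3 rose in Yap1 shRNA (median -0.89). Mylk3, the cardiac kinase of the regulatory light chain, averaged 23.1 ± 4.43 TPM in Yap1 WT, 5.97 ± 1.36 TPM in Yap1 shRNA and 103 ± 3.98 TPM in GFP libraries. It was 5.03-fold lower in Yap1 WT than in GFP (log2 -2.33, SE 0.11) and 19.8-fold lower in Yap1 shRNA than in GFP (log2 -4.30, SE 0.15), with edgeR adjusted p-values of 2.88e-09 and 4.55e-11. Unc45b, a chaperone that folds muscle myosin, fell against GFP both in Yap1 WT (log2 -1.74) and in Yap1 shRNA (-3.55). So did Trim55, a ubiquitin ligase of the sarcomere (-1.69 in Yap1 WT and -3.08 in Yap1 shRNA), and Mybpc3 (-1.76 in Yap1 WT and -3.38 in Yap1 shRNA). In Yap1 WT against Yap1 shRNA 8 of the 16 partners were higher and 5 were lower (median 0.75, or 0.34 on log2(TPM + 1)), with Mybpc2, the fast skeletal form of myosin binding protein C, 2.40 higher. The count of 5 lower partners lies near the background, as 31.3% of all genes tested were lower there.

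Factors known to regulate cardiac myosin genes made up a list of 20, all tested. Relative to GFP, 14 fell and 4 rose in Yap1 WT, with a median of -0.48, and 12 fell and 5 rose in Yap1 shRNA, with a median of -0.35. On log2(TPM + 1) the falls numbered 8 in Yap1 WT (median -0.15) and 7 in Yap1 shRNA (median -0.12). Gata4 (log2 -0.68), Gata6 (-0.67), Mef2d (-0.69) and Srf (-0.81), all transcription factors of heart muscle, fell in Yap1 WT cells. The 4 that rose in Yap1 WT cells relative to GFP cells were Hopx (log2 1.03), Med13 (0.78), Hand1 (0.62) and Purb (0.27). The homeobox factor Nkx2-5 (-1.15), Srf (-0.93) and Gata6 (-0.73) fell in Yap1 shRNA cells relative to GFP cells. Med13, a Mediator subunit known as a target of the microRNA from the Myh6 intron, averaged 20.4 ± 3.18 TPM in Yap1 shRNA and 5.67 ± 0.635 TPM in GFP libraries and rose by 1.63 (SE 0.09, edgeR adjusted p = 3.36e-09). Between the Yap1 groups, 3 were higher in Yap1 WT, 7 were lower and 10 did not pass the test (7 higher and 6 lower with library size alone). Of all genes tested 31.3% were lower there, so the count of 7 lower regulators lies near the background. Mef2a (log2 -0.75), Med13 (-0.85) and Purb (-0.72), a repressor of Myh6, were lower there, while Nkx2-5 was 0.59 higher.

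Markers of the chambers other than myosins were counted beside the light chains. Of 9 atrial genes tested, 8 fell and 0 rose in Yap1 WT against GFP (median -0.69), and 7 fell and 1 rose in Yap1 shRNA against GFP (median -1.52). In Yap1 WT against Yap1 shRNA 5 were higher and 2 were lower. Nppa, the atrial natriuretic peptide that fetal ventricle also makes, averaged 4920 ± 567 TPM in Yap1 WT, 942 ± 136 TPM in Yap1 shRNA and 6762 ± 399 TPM in GFP libraries. It fell relative to GFP in Yap1 WT (log2 -0.63, SE 0.11) and in Yap1 shRNA (-3.05, SE 0.12). Gja5, the connexin of atrial and conduction cells, likewise fell in Yap1 WT (-0.69) and in Yap1 shRNA (-2.03). Not all genes of the list moved this way. Nr2f1 was the 1 that rose in Yap1 shRNA against GFP (0.81). Nr2f1 (-1.03) and Nr2f2 (-0.84) were the 2 that were lower in Yap1 WT than in Yap1 shRNA.

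Of 7 ventricular genes, 4 fell and 1 rose in Yap1 WT against GFP (median -0.76), and 3 fell and 2 rose in Yap1 shRNA against GFP (median -0.19, but 0.03 on TPM). The counts in Yap1 shRNA lie near the background, where 39.1% of all genes tested fell and 39.2% rose. Between the Yap1 groups, 2 were higher and 5 were lower in Yap1 WT. Irx4, the ventricular homeobox factor, averaged 4.05 ± 1.07 TPM in Yap1 WT, 18.9 ± 2.68 TPM in Yap1 shRNA and 25.1 ± 1.91 TPM in GFP libraries. Relative to GFP its log2 difference was -2.74 in Yap1 WT (SE 0.15, edgeR adjusted p = 8.59e-09) and -0.64 in Yap1 shRNA (SE 0.14, edgeR adjusted p = 0.000765). Irx4 was thus lower in Yap1 WT than in Yap1 shRNA (-2.10, SE 0.17, edgeR adjusted p = 2.59e-07), whereas the ventricular chains Myl2 and Myl3 were higher. Pln, which encodes the calcium pump inhibitor phospholamban and is also on the cardiomyocyte list, fell in Yap1 WT (-2.79) and in Yap1 shRNA (-4.68) relative to GFP. Like Myl2 and Myl3, Pln was higher in Yap1 WT than in Yap1 shRNA (1.89, SE 0.15), as was Hand1 (0.81, SE 0.29).

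Markers of cardiomyocytes moved with the myosins. All 14 genes of that list fell in Yap1 WT against GFP (median -1.77) and in Yap1 shRNA against GFP (median -3.23), and in Yap1 WT against Yap1 shRNA 12 were higher and 2, Mb and Csrp3, did not pass the test (median 1.36). Their summed level was 7716 to 11566 TPM in Yap1 WT, 2798 to 3189 TPM in Yap1 shRNA and 32140 to 33340 TPM in GFP libraries. No gene of the list was at 0 in any group, so markers of the labelled cell type were detected in every group. Mb, the oxygen store myoglobin, fell by 4.94 in Yap1 WT (SE 0.16, edgeR adjusted p = 9.98e-11), more than any of the myosins there. Also in Yap1 WT, Csrp3, a muscle LIM protein, fell by 1.52, and Atp2a2, the calcium pump of the sarcoplasmic reticulum, fell by 1.57. Tnnc1, the cardiac troponin C, fell by 3.66 in Yap1 shRNA.

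Markers of other cells of the neonatal heart were detected as well. Smooth muscle and pericyte markers summed to 4648 to 6335 TPM in Yap1 WT, 4404 to 4739 TPM in Yap1 shRNA and 9711 to 10119 TPM in GFP libraries, with 7 of 8 lower in Yap1 WT and 8 of 8 lower in Yap1 shRNA than in GFP. Fibroblast markers summed to 3488 to 4702 TPM in Yap1 WT, 2223 to 2467 TPM in Yap1 shRNA and 4593 to 5053 TPM in GFP libraries. Of 10 tested, 6 were lower and 3 higher in Yap1 WT than in GFP. In Yap1 shRNA 9 were lower than in GFP and 1, Dcn, was higher (log2 1.80, SE 0.15). Endothelial markers were low throughout, at 33.6 to 37.4 TPM in Yap1 WT, 49.9 to 55.5 TPM in Yap1 shRNA and 27.9 to 30.9 TPM in GFP libraries, with 3 of 8 higher and 2 lower in Yap1 WT and 6 higher and 1 lower in Yap1 shRNA than in GFP. Macrophage markers summed to 78.1 to 79.5 TPM in Yap1 WT, 34.4 to 49.9 TPM in Yap1 shRNA and 58.7 to 64.0 TPM in GFP libraries, with 2 of 8 higher and 1 lower in Yap1 WT and 1 higher and 4 lower in Yap1 shRNA than in GFP. Over all genes tested 32% rose and 31.8% fell in Yap1 WT against GFP, so the endothelial counts and the 3 higher fibroblast markers there lie near the background. The macrophage counts there, 2 of 8 higher and 1 lower, do not exceed it. The part of these marker differences in the falls of the myosins was not tested.

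**Figure D5:**
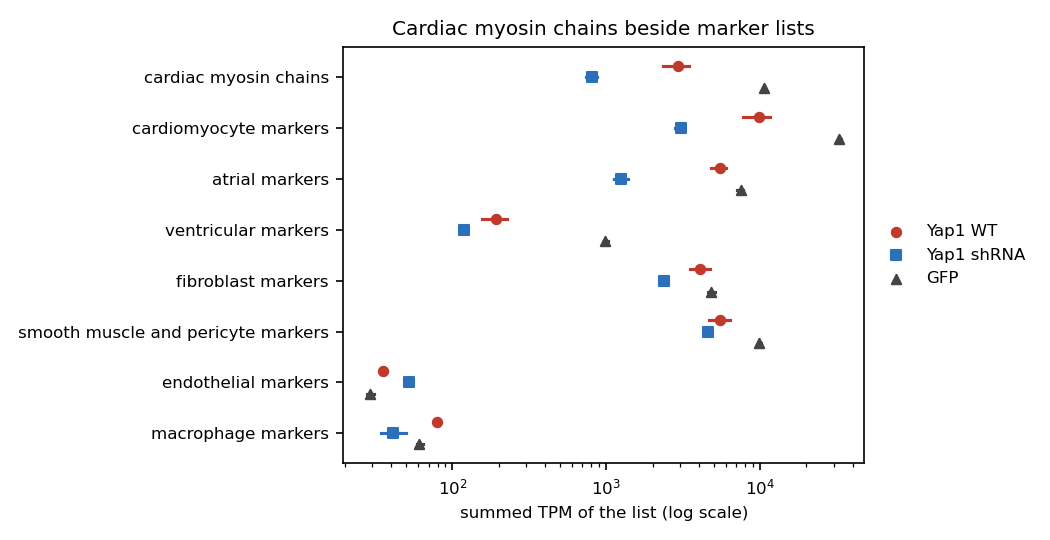
Summed TPM of the myosin genes and of each marker list, on a log axis, for Yap1 WT, Yap1 shRNA and GFP, as the mean of 3 libraries with a line from the lowest to the highest. The cardiomyocyte sums lie at 7716 to 11566 TPM in Yap1 WT and 2798 to 3189 TPM in Yap1 shRNA, against 32140 to 33340 TPM in GFP, while endothelial and macrophage sums stay under 80 TPM.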

How the data were processed

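Messenger RNA of 9 libraries was analysed, 3 per group as labelled. The authors deposited expected counts per gene, with no normalization, and TPM scaled within each library. The deposited table also holds log2 fold changes with p-values and q-values for the 3 comparisons, per the file headers; the members' log2 values there differed from those below by at most 0.009. A second table repeats columns of the first and was not used. The submitters' processing notes name HISAT2, Bowtie2, RSEM 1.3.1, DESeq2 1.4.5 and rn6; the role of each is not given in the sources used here, nor is strand.

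Expected counts were rounded and fitted in edgeR 4.0.16 (R 4.3.3) over all 9 libraries with TMM scaling, after filterByExpr, with a term for group alone. The quasi-likelihood F test was two-sided, adjusted by Benjamini-Hochberg over 13708 genes and called at 0.05. Ratios used exact permutation tests, on the between-group sum of squares for the 3 groups and two-sided on the difference in means for each pair of groups. Likeness used genes of at least 5 CPM on average and named the nearest 3 per member at most. From each list with at least 3 calls, genes were named among up to 4 called with the lowest p. Other genes named, such as Myl12b, Myh9 and Myh2, were chosen after their values were seen. The members and lists were chosen with earlier results of these data known. Methods were tested on simulated data. Markers of other cells were set beside the members after seeing the data. RefSeq promoter windows were found for 6 of 7 members, with none used for Myl2.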

Additional observations from a re-analysis of the deposited data

How the results depend on the processing

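Alternatives were RLE scaling, library size alone, DESeq2 1.42.0, limma-trend on log2(TPM + 1), no filter, a filter of 5 CPM in 3 libraries, the 6 compared libraries alone, counts thinned to the smallest library, the replicate number as a block and each library left out, and for the ratios also expected counts with no length correction and a Kruskal-Wallis statistic. Over these, 377 member values kept their direction and their side of the threshold, and 1 changed sign: Myh7b in Yap1 WT against Yap1 shRNA was 0.033 with library size alone (edgeR adjusted p = 0.906). Gene counts stayed within 1.5 times in all 54 cases. With library size alone and on log2(TPM + 1), the median gene in Yap1 WT against GFP lay at 0.138 and 0.136, and 5637 and 5419 genes were higher against 3344 and 2894 lower, where 4391 were higher and 4360 lower by TMM. For Yap1 shRNA against GFP the median on log2(TPM + 1) was 0.156, and for Yap1 WT against Yap1 shRNA with library size alone it was 0.152. The 3-group p of Myl7 over Myl2 was 0.0857 with a Kruskal-Wallis statistic, and 0.0107 to 0.118 with single libraries left out; fewer libraries allow fewer arrangements. Whether the replicate numbers pair the samples is not known. Correlations of same-numbered libraries of different groups ran from -0.031 to 0.094, and those of differently numbered libraries from -0.112 to 0.056. With the replicate block, the 3-group exact permutation p of Myl7 over Myl2 was 0.111 (smallest possible 0.0278). The genes called with the block numbered 8812, 10752 and 8590 in the 3 comparisons, against 8751, 10733 and 8562 without it. Depth limits Myl7, Myl2 and Myh7b in Yap1 shRNA, at 5 to 35 reads a library.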

Other observations

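Other cores were searched in the 6 RefSeq promoter windows of the members, on both strands. The MEF2 core TAAAAATA was found in the window of Myh7 and in 2.69% of all windows. The letters just before the Myh7 start resemble the end of an intron, so this window may not be a promoter. Whether transcription begins at the annotated starts was not tested. The TEAD core CATTCC was also in the window of Myh6, the T-box core GGTGTG in that of Myh7b, and the nuclear receptor half-site AGGTCA in that of Myh7b and in 16.2% of all windows. The GATA cores AGATAA and TGATAA were in none of the 6 windows and in 11.6% and 9.03% of all windows. Binding was not measured, and no match says only that the letters are not in the window.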
